A study of Mus musculus with 6 samples.

Results

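In the mouse gene annotation some transcribed stretches carry the biotype TEC or sense_intronic. A TEC locus is an unspliced transcript cluster with a polyadenylation feature that still awaits experimental proof as a gene. A sense_intronic locus is a noncoding transcript that lies inside an intron of a coding gene on the same strand. The loci described here have either biotype, lie on chromosomes 1 to 19 and had a mean of at least 1 FPKM (fragments per kilobase of gene length, scaled for depth) over 6 libraries. That rule left 216 of 3465 candidate loci, out of 54532 genes in the table. Of the 216 loci, 172 of 3145 candidates were TEC and 44 of 320 were sense_intronic. They were chosen by their mean FPKM over all libraries, so their level is a description and not a finding. Just under the limit lay Gm10517 at 0.989, 2610306O10Rik at 0.996 and 4930466K18Rik at 0.997 FPKM, and just over it Gm37795 at 1.004, Gm45508 at 1.005 and C230096K16Rik at 1.008 FPKM.

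The libraries came from mouse pancreatic islets, labelled as β cells, the insulin-secreting cells of the islet. Bcas2 conditional knockout (labelled Cko, here Bcas2 cKO, libraries 3, 4 and 5) was set against control (labelled wt, libraries 1, 3 and 4). The sources used here do not give the driver of the Cre, which exons of Bcas2 were deleted, the age and sex of the mice, or any allele or agent that both groups carry. Bcas2 cKO library 5 is a table column whose number no label carries, and it was used as a library of the Bcas2 cKO group. The labels instead name a Bcas2 cKO sample 1, which no column name matches, and whether that sample is column 5 could not be settled. The labels do not say that libraries came from separate animals, so p-values measure only the spread between libraries, which may be technical.

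Bcas2 itself was 8.76, 8.40 and 9.14 FPKM in Bcas2 cKO libraries 3, 4 and 5, against 10.3, 15.04 and 11.2 FPKM in control libraries 1, 3 and 4. All 3 Bcas2 cKO libraries lay below the control libraries, but the log2 fold change of -0.42 (SE 0.13) did not reach the threshold (limma adjusted p = 0.0829). Reads on genes came to 16351800 to 16904326 per Bcas2 cKO library and 15170439 to 15594871 per control library. Transcripts on the list of 14 β cell markers took 14.8 to 16.1% of these reads in Bcas2 cKO and 20.6 to 28.9% in control, so the labelled cell type was present in all libraries. The 30 acinar cell markers took 2.21 to 6.20% in Bcas2 cKO and 0.681 to 1.66% in control, with none at 0 in all libraries. The 11 ductal markers took 0.117 to 0.138% in Bcas2 cKO and 0.0621 to 0.0659% in control. The 16 macrophage and lymphocyte markers took 0.0614 to 0.0901% in Bcas2 cKO and 0.0420 to 0.0532% in control. The 13 α, δ and PP cell markers took 4.62 to 4.999% in Bcas2 cKO and 3.73 to 3.84% in control, and the 13 endothelial markers 0.0638 to 0.0723% in Bcas2 cKO and 0.0572 to 0.0712% in control. The endothelial shares overlapped between the groups and the other shares did not. The part of these shares in the differences described here was not tested. In bulk libraries fewer cells of a type and less RNA per cell cannot be told apart.

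Introns are removed from nuclear precursor RNA by the spliceosome, and excised introns are normally debranched and degraded within the nucleus. BCAS2 belongs to the Prp19 complex, which takes part in activating the spliceosome. Reads on a locus inside an intron can come from a transcript of its own or from unspliced or excised host intron, and in these libraries the sources cannot be told apart. Whether the authors counted reads by strand is not stated in the sources used here, so reads of loci that overlap exons of a gene on the opposite strand may belong to either gene.

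The ends of a few loci are shown because an AATAAA hexamer near the 3′ end is the usual signal for cleavage and polyadenylation of a transcript. The lines hold the last 60 bases of the annotated transcripts of GENCODE M21 (build GRCm38), read 5′ to 3′ on the transcript strand. Capitals mark AATAAA. Loci with and without the hexamer are set side by side.
Gm44243 (chr6:129540853-129540912, plus strand): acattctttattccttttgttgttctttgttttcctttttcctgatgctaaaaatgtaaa
Gm38357 (chr3:51234321-51234380, plus strand): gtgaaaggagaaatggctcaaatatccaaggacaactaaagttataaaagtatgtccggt
Gm44545 (chr7:100951503-100951562, plus strand): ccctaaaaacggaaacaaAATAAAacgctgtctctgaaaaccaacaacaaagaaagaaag
AC167363.2 (chr17:29093416-29093475, minus strand): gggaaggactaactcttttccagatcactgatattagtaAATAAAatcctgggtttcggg
Gm9860 (chr7:46208142-46208201, plus strand): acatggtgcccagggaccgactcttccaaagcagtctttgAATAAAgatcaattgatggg
Peg13 (chr15:72805600-72805659, minus strand): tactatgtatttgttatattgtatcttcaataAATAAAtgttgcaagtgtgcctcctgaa

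The letters AATAAA were searched on the transcript strand alone, in the last 50 bases. They were found in 65 of the 215 loci with a transcript (30.2%), against 688 of the 3249 other candidates (21.2%). AATAAA or ATTAAA was found in 85 loci (39.5%), against 916 other candidates (28.2%). Among the loci that differed between the groups, AATAAA was found in 8 of the 27 that rose and 2 of the 6 that fell. Gm44243 and Gm38357, which rose, lacked it in this window. At least 12 A among the last 20 bases, a stretch on which an oligo-dT primer can start, occurred in 15 loci. It occurred in 304 of the 3249 other candidates. Of the 27 loci that rose, 1 had such an end, and that was Gm44545, whose end is shown above. The median GC content was 44.0% in the loci and 42.3% in the other candidates.

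Most of the loci lay within coding genes. A protein-coding gene held 162 of the 216 loci, 129 on its own strand and 33 on the opposite strand, and 54 lay outside. An intron of a coding transcript held the whole of 147 loci, 125 of them on the host's strand, and these introns had a median length of 7081 bases (818 to 191911). Intron 1 of the host transcript held 39 loci and the last intron 19. The hosts numbered 147, of which 14 held more than 1 locus. Host coding exons were overlapped by 4 same-strand and 16 opposite-strand loci, and 26 loci overlapped an exon of another gene. A single exon made up 190 loci, and the median length was 1508.5 bases (60 to 6480).

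The levels were low. The median of the mean FPKM was 1.81, the highest 59.6, and 24 loci reached 5 FPKM and 7 reached 10 FPKM. A locus had a median of 44 reads per library (0 to 9092), 45 loci had under 10 reads in some library, and 3 had a library at 0. Where locus and host could be compared, the locus stood at a median of 21.3% of the host's FPKM in Bcas2 cKO and 18.1% in control over 156 pairs. The locus exceeded its host in 7 pairs in Bcas2 cKO and in 4 pairs in control. All reads on the 216 loci together made up 0.156 to 0.194% of a Bcas2 cKO library and 0.112 to 0.147% of a control library. Without the 6 most abundant loci the shares were 0.0948 to 0.105% in Bcas2 cKO and 0.0693 to 0.0936% in control. The Bcas2 cKO shares still lay above the control shares, though the lowest of the former nearly met the highest of the latter. A share of all reads also depends on the other genes. The β cell markers took 14.8 to 16.1% of reads in Bcas2 cKO and 20.6 to 28.9% in control. Shares without those genes were not compared.

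Of the 216 loci, 27 rose in Bcas2 cKO (12.5%), 6 fell (2.78%) and 183 did not pass the test (limma on log2(FPKM + 1) over the 13723 genes whose mean reached 1 FPKM, Benjamini-Hochberg adjusted p under 0.05). Over all genes tested, 6.97% rose and 7.55% fell. Among genes of 1 to 5 FPKM, where most of the loci lay, 6.01% rose and 4.84% fell, against 21 and 5 of the 192 loci in that range. The Bcas2 cKO libraries all lay above the control libraries for 52 of the 216 loci, and all below for 17. Over all genes tested the same held for 16.8% above and 21.1% below. The median log2 fold change was 0.06 over the loci and -0.03 over all genes tested, and 121 of the 216 were above 0. Without control library 3 the median of the loci was -0.01, as over all genes, and without control library 4 it was 0.11. A control mean under 1 FPKM was found in 29 loci, 9 of them among the 27 that rose, and a Bcas2 cKO mean under 1 FPKM in 18 loci, 1 of them among the 6 that fell, so these passed the limit through the other group. Because 1 was added to each FPKM before taking log2, a fold change of a low locus is understated. The 33 calls fell to 15 without Bcas2 cKO library 3, 4 or 5 and to 18 without control library 4. In the fit over all 32845 genes above 0 FPKM, 25 of 2423 candidates rose and 4 fell, where 1.91% of all genes rose and 1.57% fell.

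By biotype, 21 of 172 TEC loci rose and 4 fell, and 6 of 44 sense_intronic loci rose and 2 fell. On the host's strand 16 of 129 loci rose and 4 fell, with a median log2 fold change of 0.10. On the opposite strand 5 of 33 rose and none fell in the limma fit, with a median of -0.03. Outside protein-coding genes 6 of 54 rose and 2 fell, with a median of -0.06. In intron 1 of the host 8 of 39 loci rose and none fell in that fit. Over all genes tested, as above, 6.97% rose and 7.55% fell. Differences between these positions were not tested. Other noncoding classes in the same fit had 28 of 352 antisense genes risen and 18 fallen, 32 of 331 lincRNA genes risen and 33 fallen, and 16 of 121 snoRNA genes risen and 1 fallen.

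**Figure D1:**
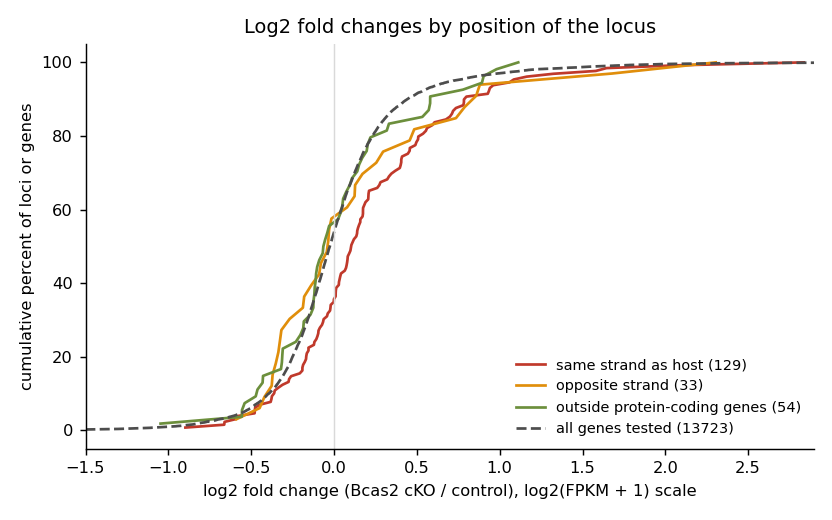
Cumulative percent of loci (y axis) by log2 fold change of Bcas2 cKO over control on the log2(FPKM + 1) scale (x axis), for 129 same-strand loci, 33 opposite-strand loci, 54 loci outside protein-coding genes and all 13723 genes tested (dashed). The same-strand curve lies to the right of the others over most of its middle, with a median of 0.10.

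Loci in 5 hosts rose together with the host. Gm17024 (sense_intronic, chromosome 12, 40209487 to 40211073, minus strand) lies in intron 8 of 11 of Ifrd1, an interferon-related transcriptional regulator. It was 20.6, 42.1 and 26.6 FPKM in Bcas2 cKO and 2.19, 8.76 and 9.77 FPKM in control. The groups did not overlap (log2 fold change 2.09, SE 0.49, limma adjusted p = 0.0336), but the call was lost without Bcas2 cKO library 3, 4 or 5 or control library 3 or 4, with adjusted p up to 0.101. Ifrd1 rose by 1.16 (adjusted p = 0.0354), to 18.9 ± 5.95 FPKM in Bcas2 cKO against 7.95 ± 2.80 FPKM in control (SD, n = 3 each).

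Gm38357 (TEC, chromosome 3, 51231917 to 51234380, plus strand) lies in intron 1 of Noct, which encodes the clock-controlled phosphatase nocturnin. It was 3.36, 3.64 and 2.68 FPKM in Bcas2 cKO and 0.640, 0.391 and 0.221 FPKM in control, with every Bcas2 cKO library above every control library. It rose by 1.58 (SE 0.16, limma adjusted p = 0.00262), and Noct rose by 1.10 (adjusted p = 0.0212). AC167363.2 (TEC, chromosome 17, 29093416 to 29094461, minus strand) lies on the opposite strand of Cdkn1a, the gene of the cell cycle inhibitor p21, and overlaps its exons by 273 bases. It was 4.53, 6.14 and 4.38 FPKM in Bcas2 cKO and 0.603, 1.27 and 0.781 FPKM in control. The groups did not overlap (log2 fold change 1.68, adjusted p = 0.00271), and Cdkn1a rose by 1.93 (adjusted p = 0.00213), to 30.5 ± 5.41 FPKM in Bcas2 cKO against 7.30 ± 1.52 FPKM in control. Reads from the exon overlap cannot be assigned to a strand here. Both Gm38357 and AC167363.2 had a control mean under 1 FPKM and passed the limit through the Bcas2 cKO group.

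The other 2 such hosts were Lias and Adck5. 1110003F10Rik, in intron 10 of Lias, the lipoic acid synthase gene, rose by 1.06 (adjusted p = 0.0237) beside a host rise of 0.56. 5730521K06Rik, in intron 3 of Adck5, rose by 0.78 (adjusted p = 0.0154) beside a host rise of 0.80. The added 1 FPKM shrinks the change of the low locus more than that of the host: by FPKM the locus was 3.06 ± 0.670 in Bcas2 cKO and 1.34 ± 0.0452 in control, and Adck5 was 14.9 ± 0.754 in Bcas2 cKO and 8.12 ± 0.445 in control. The call on 1110003F10Rik was lost without Bcas2 cKO library 4 or 5 or control library 3 (adjusted p up to 0.0786), and that on 5730521K06Rik without Bcas2 cKO library 3 or 4 or control library 4 (adjusted p up to 0.0587).

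More often the locus rose and its host did not pass the test. Of the 21 risen loci with a tested host, 16 had a host that was not called, 5 had a risen host and none had a fallen one in the limma fit. A host that was not called was not always level between the groups. Qrich1 (0.24, limma adjusted p = 0.0909), Gramd1b (0.32, 0.125), Tmem161b (0.35, 0.0999), Ush1c (0.34, 0.0951) and Ddx24 (0.16, 0.226) lay above control in every Bcas2 cKO library. Gabarapl1 (-0.26, 0.130) and Abcd3 (-0.20, 0.138) lay below in every one. Gm44545 (TEC, ENSMUSG00000109132, chromosome 7, 100950817 to 100951562, plus strand) lies in intron 1 of P2ry6, a G protein-coupled receptor for UDP, on the opposite strand. It was 14.6, 11.6 and 13.1 FPKM in Bcas2 cKO, from 197, 152 and 169 reads, against 2.28, 1.19 and 2.19 FPKM in control, from 27, 12 and 24 reads. Each Bcas2 cKO library lay far above the highest control library (log2 fold change 2.30, SE 0.17, limma adjusted p = 0.00176), and the call held without any 1 library. P2ry6 was 21.97 ± 2.67 FPKM in Bcas2 cKO and 17.4 ± 3.74 FPKM in control (log2 fold change 0.33, adjusted p = 0.194). The locus stood at 74.5, 46.6 and 60.9% of P2ry6 in Bcas2 cKO and at 10.5, 7.7 and 14.6% in control.

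Gm44243 (TEC, chromosome 6, 129540221 to 129540912, plus strand) lies in intron 3 of Gabarapl1, an Atg8-family gene of autophagy. It was 8.60, 9.94 and 12.1 FPKM in Bcas2 cKO and 2.73, 5.14 and 5.31 FPKM in control. The groups did not overlap (log2 fold change 1.08, adjusted p = 0.0226), and Gabarapl1 was lower by value, 71.6 ± 5.89 FPKM in Bcas2 cKO and 86.2 ± 7.33 FPKM in control, without passing the test (-0.26, adjusted p = 0.130). The call on Gm44243 was lost without Bcas2 cKO library 4 or 5, with adjusted p up to 0.0734.

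Gm38366, in intron 2 of Qrich1, was 2.54, 1.88 and 1.92 FPKM in Bcas2 cKO and 0.359, 0.306 and 0.493 FPKM in control. It rose by 1.16 (adjusted p = 0.00523), with no control library near the Bcas2 cKO libraries. Gm38366 passed the limit of 1 FPKM through the Bcas2 cKO group. Without Bcas2 cKO library 3 it was under the limit and not tested, and the call was kept in the other 5 fits without 1 library. In Abcd3, which encodes a peroxisomal ABC transporter, 4633401B06Rik lies in intron 4. It was 2.72, 3.71 and 2.81 FPKM in Bcas2 cKO and 0.940, 0.898 and 1.46 FPKM in control, and rose by 0.96 (adjusted p = 0.0108). A second locus of Abcd3, Gm43609 in intron 17, had a log2 fold change of 0.06 and was not called (adjusted p = 0.806). The difference between these loci was not tested.

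Gramd1b, which encodes a cholesterol transporter of the endoplasmic reticulum, held 2 sense_intronic loci that rose. Gm48129 was 2.45, 1.78 and 3.18 FPKM in Bcas2 cKO, from 17, 12 and 21 reads, against 0.494, 0 and 0.711 FPKM in control, from 3, 0 and 4 reads. The groups did not overlap (log2 fold change 1.32, adjusted p = 0.0176), on few reads, and the call was lost without Bcas2 cKO library 3 or 5 (adjusted p up to 0.0637). Gm48129 passed the limit of 1 FPKM through the Bcas2 cKO group. The neighbouring Gm48127 rose by 0.93 (adjusted p = 0.0354) and lost its call in 5 of 6 fits without 1 library (adjusted p up to 0.106), those without Bcas2 cKO library 3, 4 or 5 or control library 3 or 4. Exons of 1700110K17Rik overlap Gm48129 by 66 bases and Gm48127 by 188 bases.

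**Figure D2:**
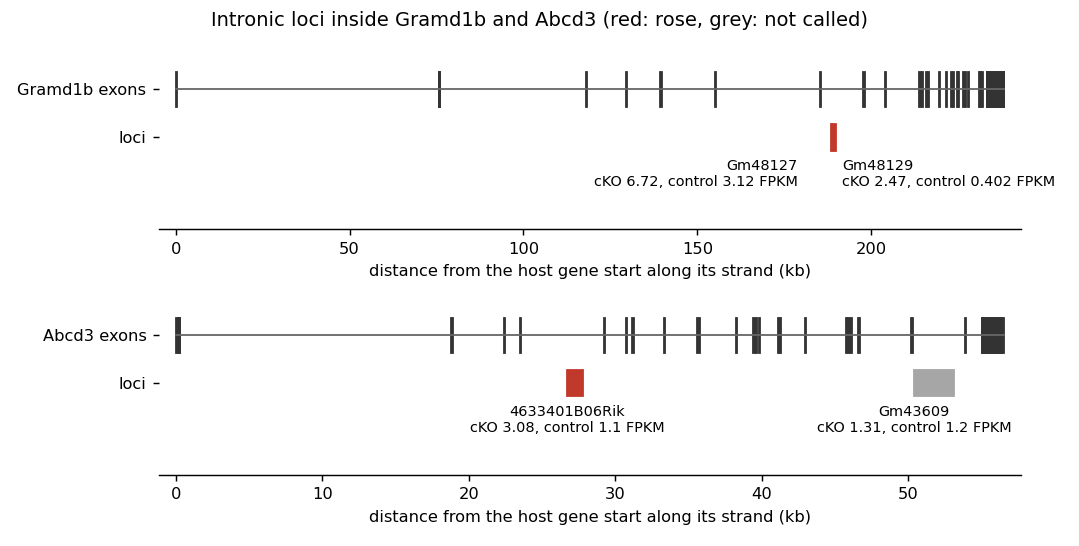
Exons of the coding transcripts (black) and the loci of Gramd1b and Abcd3 (red where the locus rose, grey where it was not called) by distance from the host's start in kb (x axis), with mean FPKM of each locus in Bcas2 cKO and control. Gm48127 and Gm48129 lie next to each other in a single intron of Gramd1b, and the Abcd3 loci lie in intron 4 and intron 17.

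Further risen loci on the host's strand had hosts that were not called. Gm47260, in the DEAD-box helicase gene Ddx24, was 4.65, 6.70 and 4.93 FPKM in Bcas2 cKO and 2.80, 1.74 and 2.50 FPKM in control. Gm43389, in the cullin-3 adaptor gene Klhl7, was 4.55, 4.60 and 6.26 FPKM in Bcas2 cKO and 2.11, 1.94 and 2.52 FPKM in control. Both rose by 0.94 without overlap between the groups and kept their calls without any 1 library. Gm49223 in Tmem161b rose by 0.78, Gm48063 in Eml5 by 0.74 and Gm44321 in Krcc1 by 0.70. On the opposite strand, Gm9910 in Cyb561 rose by 0.88, 4932442E05Rik in Dyrk2 by 0.86 and Gm9860 in Ush1c by 0.79. Without 1 library the calls of these last 6 loci were lost in 3 to 6 fits each, all of them without Bcas2 cKO library 3, with adjusted p up to 0.123. Among them Gm48063, Gm44321 and Gm9910 passed the limit of 1 FPKM through the Bcas2 cKO group.

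**Figure D3:**
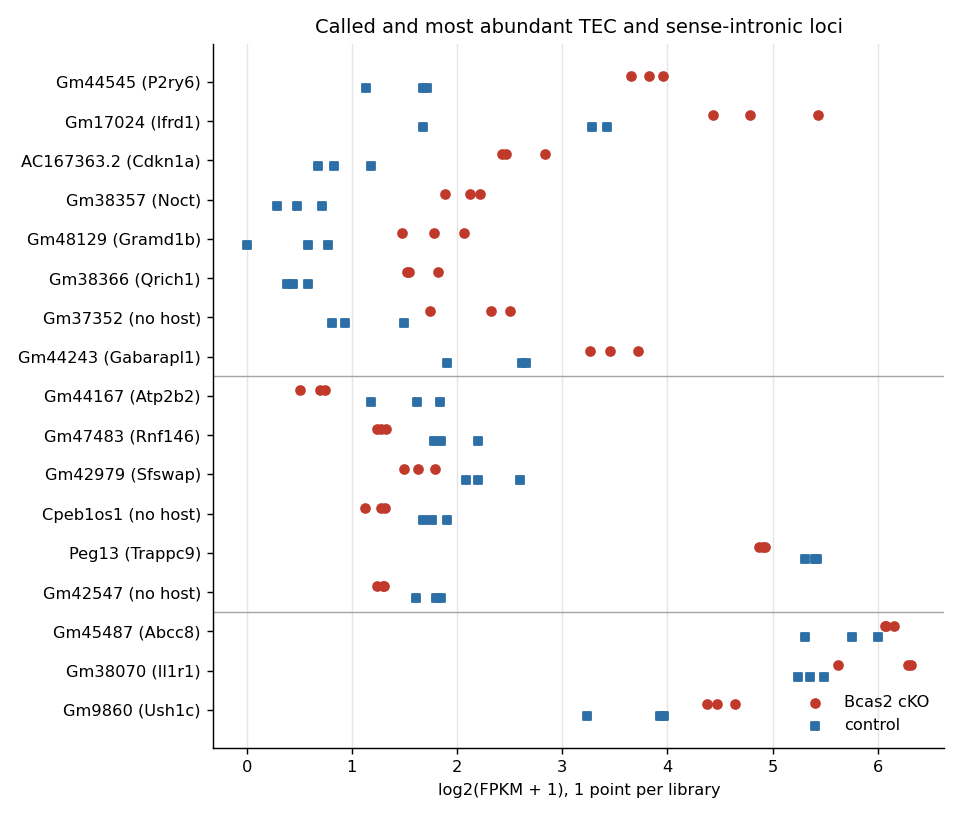
Values of 8 of the loci with the largest rises (top), of the loci that fell (middle) and of the most abundant loci not already shown (bottom), as log2(FPKM + 1) on the x axis with 1 point per library, Bcas2 cKO (red circles) and control (blue squares). In the rises and the 6 falls plotted the groups do not overlap, as in all 33 calls, and Gm17024 reaches 42.1 FPKM in Bcas2 cKO library 4.

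Outside protein-coding genes 6 loci rose. Gm37352 (chromosome 8, 84200869 to 84203049, plus strand) was 4.02, 2.34 and 4.68 FPKM in Bcas2 cKO and 0.752, 0.917 and 1.81 FPKM in control. It rose by 1.11 (adjusted p = 0.0311), and the call was lost without Bcas2 cKO library 3 or 5 or control library 1 or 3 (adjusted p up to 0.0963). Gm10766, which lies 164 bases from Stard7, was 3.18, 3.47 and 2.58 FPKM in Bcas2 cKO and 1.25, 0.733 and 1.24 FPKM in control. It rose by 0.98 (adjusted p = 0.00948) and kept its call without any 1 library. 6330537M06Rik rose by 0.90, A830073O21Rik by 0.78 and Gm37607 by 0.53, and the first of these overlaps exons of Pik3r2 and Ifi30 and the second those of Fam174b by 527 bases. The call on 6330537M06Rik was lost without Bcas2 cKO library 4 or 5 or control library 3 or 4 (adjusted p up to 0.115), that on A830073O21Rik without Bcas2 cKO library 5 or control library 4 (adjusted p up to 0.0551), and that on Gm37607 in all 6 fits (adjusted p up to 0.107).

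Gm37795 (TEC, chromosome 4, 150068539 to 150070997, plus strand) starts inside the hairpin of Mir34a, a microRNA gene that p53 is known to induce. Its first 60 bases are shown for that overlap, and capitals mark the 17 bases shared with the annotated Mir34a gene.
Gm37795 (chr4:150068539-150068598, plus strand): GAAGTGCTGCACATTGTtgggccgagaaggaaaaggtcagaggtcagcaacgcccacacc
Gm37795 was 1.43, 1.53 and 1.84 FPKM in Bcas2 cKO and 0.641, 0.392 and 0.194 FPKM in control. It rose by 0.89 (adjusted p = 0.0196) with no overlap between the groups, and Mir34a was listed at 0 reads in all 6 libraries. With a control mean of 0.409 FPKM, Gm37795 passed the limit of 1 FPKM through the Bcas2 cKO group. In only 3 fits without 1 library did Gm37795 pass that limit, and the call was lost in those without control library 3 or 4 (adjusted p up to 0.0544).

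Of the 6 loci that fell, Peg13 was the most abundant. Peg13 (sense_intronic, chromosome 15, 72805600 to 72810324, minus strand) is an imprinted noncoding RNA in intron 17 of Trappc9, a subunit gene of a vesicle tethering complex. It was 29.0, 29.5 and 28.3 FPKM in Bcas2 cKO and 41.3, 38.7 and 41.9 FPKM in control. Libraries of a group lay close together, and Peg13 fell by 0.48 on the log2 scale (SE 0.07, limma adjusted p = 0.00914), a call kept without any 1 library but lost with limma voom on the recovered reads (-0.34, adjusted p = 0.0615). Trappc9 was 6.57 ± 0.354 FPKM in Bcas2 cKO and 7.37 ± 0.853 FPKM in control and was not called (adjusted p = 0.353).

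Gm44167, in intron 9 of the plasma membrane calcium pump gene Atp2b2, was 0.675, 0.424 and 0.617 FPKM in Bcas2 cKO and 2.08, 1.26 and 2.57 FPKM in control. It fell by 0.90 (adjusted p = 0.0282), the largest fall among the loci. Gm47483 in Rnf146, a ubiquitin ligase gene, fell by 0.66 (adjusted p = 0.0222), to 1.42, 1.35 and 1.496 FPKM in Bcas2 cKO against 2.60, 2.43 and 3.58 FPKM in control. Gm42979, in intron 14 of the splicing regulator gene Sfswap, fell by 0.66 (adjusted p = 0.0336), to 2.45, 1.81 and 2.08 FPKM in Bcas2 cKO against 3.25, 3.59 and 5.04 FPKM in control. Outside coding genes, Cpeb1os1 fell by 0.54 (adjusted p = 0.0261) and Gm42547 by 0.47 (adjusted p = 0.0338). None of the 4 tested hosts was called. Yet Atp2b2 (-0.43, limma adjusted p = 0.0561) and Rnf146 (-0.28, adjusted p = 0.0782) lay below control in every Bcas2 cKO library. In Sfswap and Trappc9 the groups overlapped. Gm44167 passed the limit of 1 FPKM through the control group. The calls of the 5 loci other than Peg13 were lost in 4 to 6 fits without 1 library (adjusted p up to 0.105). For each of these loci they included the fits without Bcas2 cKO library 3, 4 and 5. With voom 3 of the 6 falls were called, and without a filter on low values 1 was called.

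The most abundant loci were not all called. Gm45487 (TEC, chromosome 7, 46111537 to 46112081, minus strand) lies in intron 16 of Abcc8, which encodes the sulfonylurea receptor SUR1 of the β cell ATP-sensitive potassium channel. It was 70.0, 66.1 and 66.7 FPKM in Bcas2 cKO and 63.2, 38.7 and 52.8 FPKM in control. The groups did not overlap, but the log2 fold change of 0.41 (SE 0.17) missed the threshold (limma adjusted p = 0.150). Without control library 1 it passed, at 0.57 (adjusted p = 0.0481). Abcc8 was 181 ± 4.73 FPKM in Bcas2 cKO and 224 ± 28.6 FPKM in control and was not called. The locus stood at 37.7, 37.5 and 36.8% of Abcc8 in Bcas2 cKO and at 24.7, 19.2 and 24.8% in control.

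Gm38070 (TEC, chromosome 1, 40238020 to 40244499, plus strand), in intron 1 of the interleukin-1 receptor gene Il1r1, was 77.3, 78.8 and 48.1 FPKM in Bcas2 cKO and 43.9, 36.9 and 40.1 FPKM in control. Bcas2 cKO library 5 lay close to the control libraries, and the locus was not called (0.71, adjusted p = 0.0533), but it passed without that library (0.94, adjusted p = 0.0131). Gm9860 (TEC, chromosome 7, 46204549 to 46208201, plus strand), opposite to Ush1c, was 23.96, 19.8 and 21.1 FPKM in Bcas2 cKO and 14.2, 8.42 and 14.6 FPKM in control, and it overlaps 120 bases of Ush1c coding transcripts.

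Next, each locus was set against its own host in a separate fit of the difference between locus and host on the log2(FPKM + 1) scale. All 879 noncoding genes inside a coding gene entered it, 159 of them loci of the 2 biotypes. Over all 879 pairs 0.796% were called above the host and 0% below. Of the 159 pairs with a locus described here, 2 were called above the host in Bcas2 cKO relative to control and 0 below. An unadjusted limma p under 0.05 was found in 30 of the 159, 28 above and 2 below. Over all 879 pairs it was found in 164, 120 above and 44 below. Among the called pairs was Gm44545 against P2ry6, with a difference of 1.97 (SE 0.27, limma adjusted p = 0.0251). That call was lost without Bcas2 cKO library 3, 4 or 5 or control library 1 or 3, with adjusted p up to 0.110.

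Across the 159 pairs the median difference was 0.19 and 112 were above 0, against a median of 0.10 and 414 above 0 in the other 720 pairs. With a pseudocount of 0.1 the median was 0.26 in the 159 pairs and 0.22 in all 879, which had 0.12 with a pseudocount of 1, and with same-strand hosts only it was 0.22 in 126 pairs with a locus and 0.19 in all pairs. The FPKM ratio of locus to host was higher in every Bcas2 cKO library than in every control library for 44 of the 159 pairs (27.7%) and lower for 7 (4.40%). Over all 879 pairs the shares were 18.5% higher and 7.05% lower. Differences that did not pass the test were 1.35 for Gm44243 against Gabarapl1 (adjusted p = 0.0730), 0.93 for Gm17024 against Ifrd1 (adjusted p = 0.206), 0.71 for Gm45487 against Abcc8 (adjusted p = 0.138) and -0.25 for AC167363.2 against Cdkn1a (adjusted p = 0.597). The sign of the last difference depends on the added 1 FPKM, since by FPKM AC167363.2 stood at 16.6, 16.7 and 16.0% of Cdkn1a in Bcas2 cKO and at 7.62, 15.1 and 14.0% in control.

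**Figure D4:**
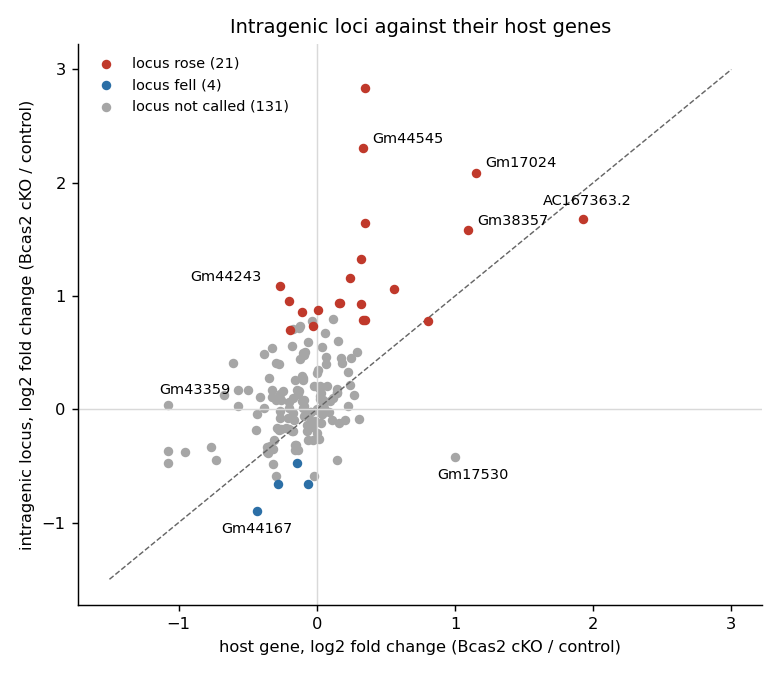
Log2 fold change of the host gene (x axis) and of the locus inside it (y axis), Bcas2 cKO over control on the log2(FPKM + 1) scale, for 156 loci, of which 21 rose (red), 4 fell (blue) and 131 were not called (grey). The dashed line marks equal change on that scale, which shrinks the change of loci lower than their hosts. Gm17530 lies below it, with -0.42 beside 1.0 for its host.

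**Figure D5:**
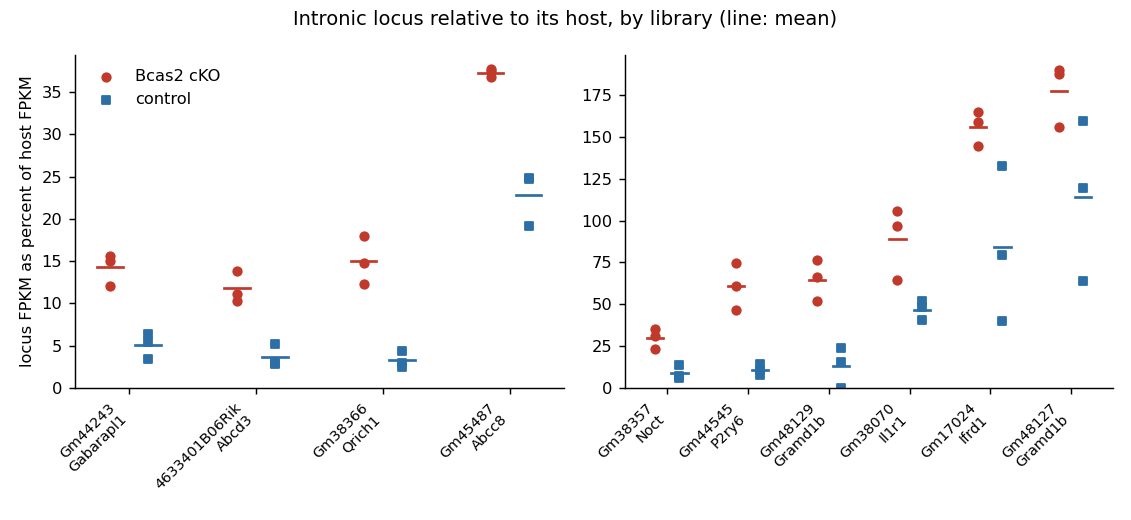
FPKM of 10 loci as a percent of the host's FPKM (y axis), 1 point per library with the mean as a line, Bcas2 cKO (red) left of control (blue), on 2 scales. For Gm44545 the Bcas2 cKO libraries lie between 46.6 and 74.5% and the control libraries between 7.7 and 14.6%.

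Hosts that were themselves called were read next. Of the 141 tested hosts, 6 rose and 16 fell, where 6.97% of all genes tested rose and 7.55% fell. The fallen hosts held 20 loci, none of which was called in the limma fit, with a median log2 fold change of 0.04. At the shares of all genes, few of 20 loci would be called in any case. The largest fall among them was that of Atp2a2, the gene of the calcium pump SERCA2 of the endoplasmic reticulum, which fell by 1.07 (adjusted p = 0.00210), to 160 ± 9.83 FPKM in Bcas2 cKO against 337 ± 1.34 FPKM in control. Its 3 loci had log2 fold changes of 0.04 for Gm43359, -0.48 for Gm43360 and -0.37 for Gm43361, and none was called.

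Gm43359 was 2.73, 3.82 and 5.22 FPKM in Bcas2 cKO and 2.81, 3.74 and 4.73 FPKM in control, so the groups overlapped throughout. The difference between Gm43359 and Atp2a2 was 1.11 and did not pass the test (adjusted p = 0.125). Further loci in fallen hosts had these values. Gm37181 in Unc80, a subunit gene of a sodium leak channel, had a log2 fold change of 0.12 beside -0.67 for the host. AC107792.3 had -0.37 beside -0.95 for Galnt14, and Gm48267 had -0.45 beside -0.73 for Cadps, a gene of dense-core vesicle exocytosis. These examples were chosen after their values were seen.

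The risen hosts held 6 loci, of which 5 rose. The exception, Gm17530, lies opposite to Dopey1. It was 4.09, 3.85 and 2.09 FPKM in Bcas2 cKO and 4.68, 3.30 and 6.49 FPKM in control, with overlapping groups. Dopey1 rose by 1.0 (adjusted p = 0.00176), to 7.88 ± 0.144 FPKM in Bcas2 cKO against 3.45 ± 0.343 FPKM in control. The difference between locus and host was -1.42 and did not pass the test (adjusted p = 0.0730). In hosts that were not called, 16 of 130 loci rose and 4 fell.

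Lists of known genes were also read, and the first held nuclear noncoding RNAs together with snoRNA host genes. Of its 16 tested RNAs, 4 rose and 7 fell, Peg13 of the loci above among the latter. The median log2 fold change over the 16 was -0.18, against -0.03 over all genes. The 4 that rose were all snoRNA host genes. Snhg1, whose spliced RNA is unstable, rose by 1.27, Gas5 by 0.58, Snhg12 by 0.60 and Snhg5 by 0.51. The imprinted Meg3, Rian and Mirg of a single gene cluster fell by 0.57, 0.72 and 0.81. Malat1 was 297 ± 14.0 FPKM in Bcas2 cKO and 399 ± 88.9 FPKM in control and was not called.

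Of 27 tested genes of nuclear RNA decay and intron turnover, 2 rose and none fell in the limma fit, with a median of 0.02. Xrn2, the nuclear 5′ to 3′ exonuclease, rose by 0.70 (adjusted p = 0.00286), to 14.9 ± 0.441 FPKM in Bcas2 cKO against 8.77 ± 0.494 FPKM in control, and Zc3h18 rose by 0.49. Of 29 tested genes known for detained introns and of their kinases, 2 rose and 4 fell, with a median of -0.06. The splicing factor gene Srsf7 rose by 0.88 and Rbm3 by 0.51, and Pnisr and Luc7l fell by 0.54 and 0.51. Over all genes tested the background was 6.97% risen and 7.55% fallen. The noncoding RNA list, with 4 risen and 7 fallen of 16, lay above it in both directions. Whether any list differs from the background was not tested.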

How the data were processed

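Trizol served for RNA extraction and a SMARTer kit for the mRNA-seq libraries, per the labels' protocols. The build was GRCm38 (mm10), per the submitters' processing notes. Aligner, counter and strandedness are not stated in the sources used here. The authors deposited FPKM for 54532 genes, and reads recovered from FPKM times length were whole within 0.01 of a read for 100% of values. The deposited FPKM imply depths of 0.890 to 1.11 times these read totals, so a scaling between libraries by an unstated method is part of the values. Columns were matched to groups by name.

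The 13723 genes whose mean reached 1 FPKM entered a fit of log2(FPKM + 1) in limma 3.58.1 and R 4.3.3 (eBayes with trend, Benjamini-Hochberg adjusted p under 0.05). The innermost protein-coding gene on the same strand, or else on the opposite strand, was the host. For 3 loci the innermost gene was under 1 FPKM, and another holding gene entered the paired fit. Locus minus host was tested over 879 pairs. Exons, introns and transcript ends came from GENCODE M21, which held 215 of the 216 loci with the same coordinates. Introns are numbered in the coding transcript whose intron around the locus is shortest.

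Members and lists were chosen with earlier results of these data known. The loci described are the 10 largest rises and falls among calls without overlap, the 6 of highest mean, those called against the host and those next to the limit, with other calls given in brief. Some loci and a host that the rule chose are not reported here, but stay in the counts. On simulated data for Bcas2 cKO against control, with 13587 genes per set, 200 of them changed, in 5 sets, the fit recovered 26.2% of changes of 0.5, 87.1% of 1 and 99.4% of 2 on the log2 scale, and 7.74% of calls were false. Alternatives were another pseudocount, other filters, scalings and hosts, limma voom on the reads, leaving out each library, and a replicate block. Tables were made with Python 3.11.15, numpy 2.4.6 and pandas 2.3.3.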

Additional observations from a re-analysis of the deposited data

How the results depend on the processing

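Of the 216 loci, 33 were called. The number was 32 with a pseudocount of 0.1, 33 with median-of-ratios scaling, 32 with quantile normalization, 34 after rescaling without the hormone genes, 32 without a trend, and 30 with limma voom on the recovered reads (27 rises and 3 falls), of which 29 were shared. With voom the median log2 change was 0.11 over all genes and 0.23 over the loci. The number of calls was 13 without a filter on low values (12 rises, 1 fall), 8 of 24 loci at a minimum of 5 FPKM, 22 of 98 loci of at least 2 FPKM, and 15 to 33 when each library was left out. Of the 33 calls, 10 were kept in all 6 fits without 1 library. Single calls kept their direction in all 465 values under these alternatives, and 139 no longer passed the test.

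Locus against host gave 2 calls. The number was 2 with a pseudocount of 0.1, with the most abundant holding gene as host or without a trend, 4 at a minimum of 5 FPKM, 1 with same-strand hosts only, and 0 to 2 when each library was left out.

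The groups share only the numbers 3 and 4. Deviations of same-numbered libraries correlated at -0.149 and 0.0453, and those of libraries with unlike numbers at -0.129 to 0.118. With so few shared numbers these values cannot settle whether the libraries are paired. A replicate block gave 11 called loci and 0 called against the host.

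At a median of 44 reads per locus and library, counting error limits single loci. The simulated recovery of 26.2% at a log2 change of 0.5 was taken over sets of 13587 genes and not over the loci. The loci had a median of the mean FPKM of 1.81, against 5.81 over all genes tested. How many differences of that size were missed among the loci was not tested.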
